A study of Mus musculus with 45 samples.

Results

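The 9 cytochrome c oxidase assembly factors Sco1, Sco2, Cox10, Cox11, Cox15, Cox16, Cox17, Cox18 and Cox20 were followed through 18 RNA-seq libraries of mouse embryos and embryonic stem (ES) cells in which the transcription factor GABPA was degraded. They were chosen by symbol from the 55385 genes of the expression tables, and all 9 were measured and passed the filter on low counts in every comparison. All libraries, controls included, carry the genotype Gabpa-dTAG/dTAG, in which both copies of the gene encode GABPA with a degradation tag that the small molecule dTAG13 targets, and the control of each stage was the solvent DMSO. Late 2-cell embryos have 3 libraries with DMSO and 3 with dTAG13. Morulae, the inner cell mass (ICM) of the E4.5 blastocyst and ES cells grown in 2i (2iES cells) have 2 and 2 each. Embryos were fertilized in vitro, cultured in KSOM and given dTAG13 at 1 µM, whereas the ES cells were given 0.5 µM for 24 h. By the study's methods, treatment started in the zygote for late 2-cell embryos and after the 2-cell stage for morulae. For the ICM it started in the early blastocyst, and cells were collected at the mid-blastocyst stage. The ICM was freed from the trophectoderm (TE) by immunosurgery and still holds epiblast (EPI) and primitive endoderm (PrE) cells. The ES line was derived from E14 cells by picking single clones. The dose was thus the same at the 3 embryo stages and differed between embryos and 2iES cells, and stage and the window of treatment cannot be told apart.

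Cytochrome c oxidase is complex IV of the respiratory chain, the enzyme of the inner mitochondrial membrane that hands electrons to oxygen. Its catalytic core is made of COX1, COX2 and COX3, which are encoded in mitochondrial DNA, and the remaining subunits and the assembly factors are encoded in the nucleus. Cox10 and Cox15 make heme A, the heme that only this enzyme carries. Cox17 is a copper chaperone that feeds Sco1 and Sco2, which build the copper site of COX2, and Cox11, which builds the copper site of COX1. Cox18 and Cox20 insert and chaperone COX2, and Cox16 helps to join COX2 to COX1. GABPA belongs to the ETS family, whose members bind DNA around a GGAA core, and is known as a regulator of nuclear genes for the respiratory chain.

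Because the comparisons ask what the loss of GABPA does to these genes, the letters CCGGAAG, an ETS element in its GABPA-like form, were searched on both strands of RefSeq promoter windows (GRCm38.p6, 250 bases before to 50 bases after each transcript start). Of the 9 genes, 7 had an entry, with 8 windows in all, and there was none for Cox17 and Cox18. The letters stood in 6 of the 8 windows (75%), against 2910 of all 32851 windows (8.86%) and 2187 of 12334 windows (17.7%) of genes with a mean of at least 1 FPKM. Counted from the start, the first base of the match lay at -45 in Sco1, -27 in Cox10, 8 in Cox15, -11 and -15 in the 2 windows of Cox16 and -103 in Cox20. The windows of Sco2 and Cox11 held no match. Stretches of 75 bases, 5′ to 3′ on the strand of the gene, show where the letters lie in 4 genes whose RNA fell in at least 1 stage. The Cox11 promoter is given as one without them. RNA of the 2 genes without a match fell as well, Cox11 in the ICM and Sco2 in late 2-cell embryos and the ICM. Sequences with a GGAA core but other flanking letters were not searched, in the printed stretches or beyond them. Capitals mark CCGGAAG or its reverse complement CTTCCGG.
Sco1, chr11:67052595-67052669, plus strand: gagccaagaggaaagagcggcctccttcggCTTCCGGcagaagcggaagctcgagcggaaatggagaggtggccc
Cox10, chr11:64079473-64079547, minus strand: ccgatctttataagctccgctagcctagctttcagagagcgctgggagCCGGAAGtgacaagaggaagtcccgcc
Cox16, chr12:81485138-81485212, minus strand: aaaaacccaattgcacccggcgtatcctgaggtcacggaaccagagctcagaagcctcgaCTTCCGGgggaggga
Cox20, chr1:178319012-178319086, plus strand: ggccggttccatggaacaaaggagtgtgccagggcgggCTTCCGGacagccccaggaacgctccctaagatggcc
Cox11, chr11:90638098-90638172, plus strand: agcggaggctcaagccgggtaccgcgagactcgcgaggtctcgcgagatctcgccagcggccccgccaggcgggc
A match is a description of the letters and not a binding site.

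The libraries hold 9457933 to 27660132 expected counts each, with the lowest totals in morulae. In the ICM, replicates differed by little more than read sampling (1.62 and 1.67 times the sampling variance), against 2.85 to 16.1 times in the other groups, so that small changes were called there and p-values measure a spread that may be partly technical. Gabpa mRNA was higher with dTAG13 in every library of every stage. It rose in late 2-cell embryos, the ICM and 2iES cells (log2 fold change 0.52, 0.95 and 0.93, adjusted p = 0.0124, 7.77e-19 and 0.00136), and differed by 0.74 in morulae (adjusted p = 0.152). As dTAG13 acts on the protein, the mRNA is no check of the treatment labels. Other cell markers moved with the treatment as well. In the ICM the summed FPKM of 13 TE markers was 138 to 142 with DMSO and 1004 to 1007 with dTAG13, and 10 of the 12 tested rose and 0 fell, with Cdx2 under 1 FPKM in the controls. The 12 EPI markers summed to 1327 to 1346 and 724 to 736 in the ICM, and 12 fell. The summed level of 9 PrE markers was 428 to 438 with DMSO and 652 to 653 with dTAG13, with 6 higher and 2 lower. In 2iES cells the EPI list summed to 1149 to 1193 and 714 to 760, with 5 lower and 1 higher, and the PrE markers Gata4, Gata6 and Sox17 were under 1 FPKM. Among all genes, 38.5% were called lower and 38.4% higher in the ICM, and 28.1% and 26.5% in 2iES cells. The part of these shifts in the results for the assembly factors was not tested, and from bulk RNA alone fewer cells of a type and less RNA per cell cannot be told apart. For the ICM, the paper reports that the number of EPI cells did not yet differ between treatments when cells were collected.

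In the DMSO libraries, the copper chaperone Cox17 was the most abundant of the 9 genes at every stage, and the last place in the order was held by the heme A synthase Cox15 at 3 stages and by the copper factor Sco2 in morulae. On the TPM scale, which is per length, Cox17 averaged 359 ± 28.1 (SD, n = 3) in late 2-cell embryos, 1408 ± 198 (n = 2) in morulae, 1198 ± 13.4 (n = 2) in the ICM and 1160 ± 75.7 (n = 2) in 2iES cells. Cox16 was next in the 3 embryo stages (76.2 ± 13.2, 288 ± 13.4 and 150 ± 0.707 TPM), and Cox20 took that place in 2iES cells (258 ± 0.707 TPM). Cox15 was last in late 2-cell embryos (0.903 ± 0.311 TPM), in the ICM (6.95 ± 0.29 TPM) and in 2iES cells (2.13 ± 0.099 TPM), and Sco2 was last in morulae (2.62 ± 0.679 TPM). Not every step in the order is larger than the spread of the libraries. In late 2-cell embryos Cox10, Cox20, Cox18 and Sco2 overlap from neighbour to neighbour, and so do Cox11 and Sco1. In the ICM only Sco2 and Sco1 overlap, in 2iES cells Cox18, Cox11 and Cox10 as well as Sco1 and Sco2 overlap, and in morulae all neighbours are apart.

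**Figure D1:**
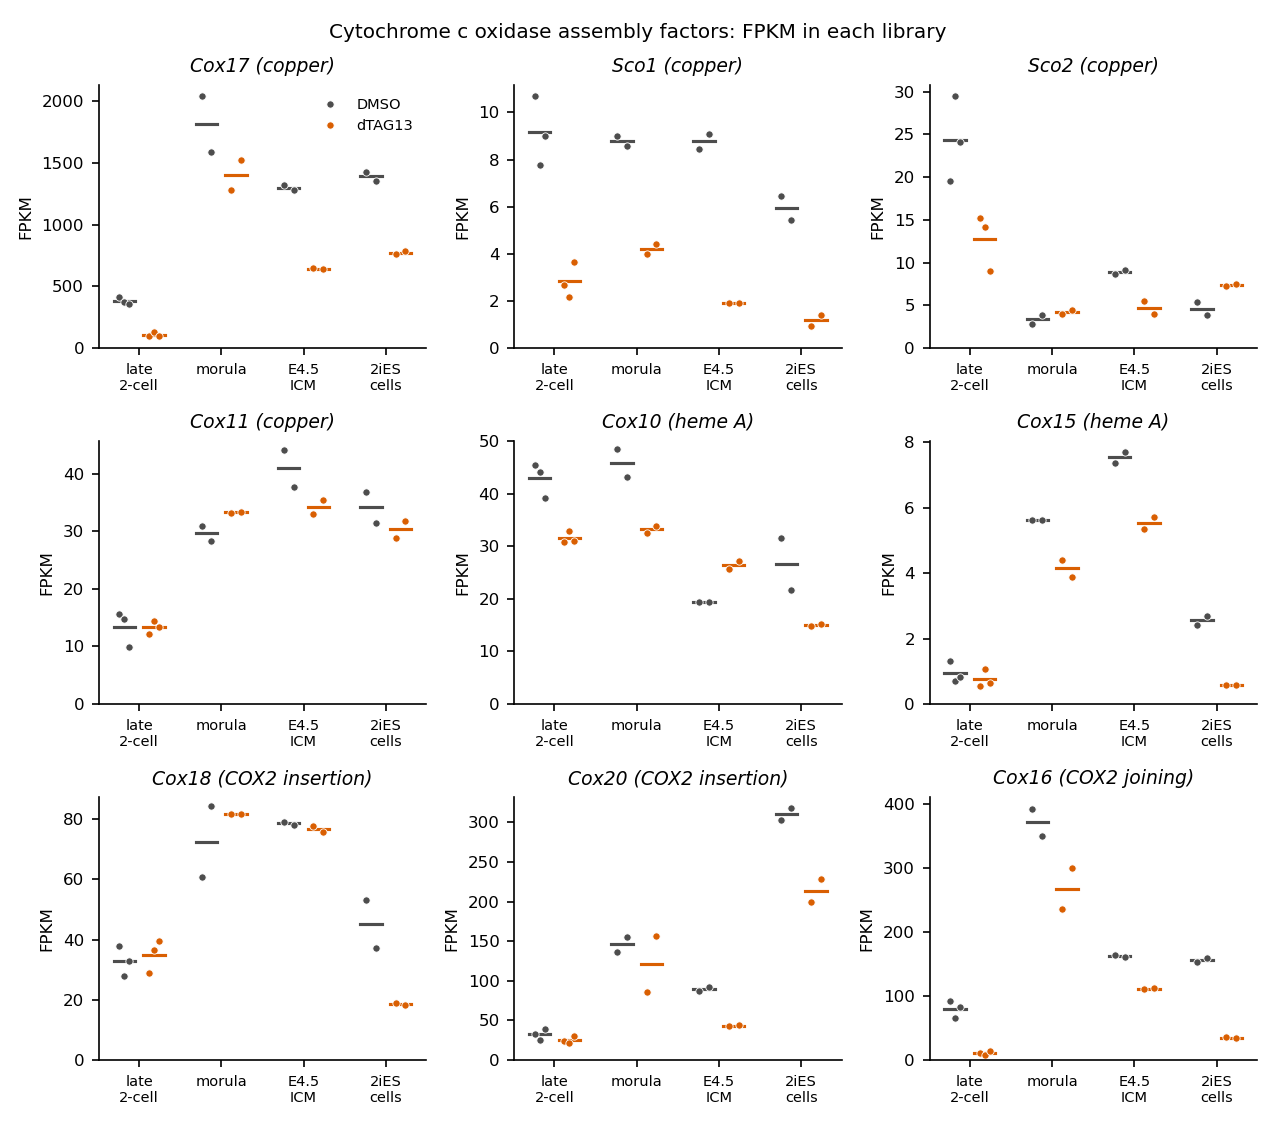
FPKM of the 9 assembly factors (vertical axes, linear from 0, a scale for each gene) by stage, with 1 point for each library and a bar at the group mean, DMSO in grey and dTAG13 in orange. Sco1 lies lower with dTAG13 at all 4 stages, Cox16 has its largest fold change in late 2-cell embryos, and Cox11 overlaps between treatments in late 2-cell embryos and 2iES cells.

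Between late 2-cell embryos and morulae the controls gained RNA of most of these genes. Of the 9, 6 rose (31.2% of all 19830 genes tested were called higher) and 1 fell (38.0% of all genes), with a median log2 difference of 1.27 against -0.28 over all genes. The largest rises were those of Cox15, which makes heme A (2.58 ± 0.249, SE), Cox17 (2.50 ± 0.146), Cox20 (2.22 ± 0.187) and Cox16 (2.02 ± 0.174), followed by the COX2 insertase Cox18 (1.27 ± 0.207) and Cox11 (1.23 ± 0.21). Adjusted p-values of the 6 ran from 2.1e-08 for Cox17 to 0.000214 for Cox11. Sco2 went the other way, at 19.5, 29.5 and 24.1 FPKM in late 2-cell embryos and 2.83 and 3.90 in morulae, a fall of 6.90-fold (log2 -2.79 ± 0.311, adjusted p = 5.77e-06). Sco1 and Cox10 differed by -0.02 and 0.02, with 95% intervals of -0.46 to 0.42 and -0.35 to 0.39.

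From morula to ICM, 4 of the 9 fell (21.0% of all genes) and 1 rose (24.6% of all genes). Lower were Cox16 (-1.10 ± 0.194, adjusted p = 0.000632), Cox20 (-0.89 ± 0.203), Cox10 (-0.70 ± 0.187) and Cox17 (-0.67 ± 0.16), and Sco2 was higher (1.26 ± 0.322, adjusted p = 0.00695). The rise of Sco2 rests on single libraries, as its adjusted p was 0.0642 without morula DMSO replicate 1 and 0.0518 without ICM DMSO replicate 2, and that of Cox10 was 0.0556 without ICM DMSO replicate 1. Between ICM and 2iES cells, 1 fell (20.7% of all genes) and 2 rose (21.9% of all genes). Cox20, the chaperone of COX2, was at 87.4 and 92.2 FPKM in the ICM and at 303 and 318 in 2iES cells (log2 2.23 ± 0.207, adjusted p = 7.58e-06). Cox15 was lower (-1.09 ± 0.263, adjusted p = 0.00556, and 0.0504 without 2iES DMSO replicate 1) and Cox17 was higher (0.54 ± 0.16, adjusted p = 0.0167). The Cox17 call was lost without ICM DMSO replicate 1 (adjusted p = 0.0939), ICM DMSO replicate 2 (0.109) or 2iES DMSO replicate 1 (0.0618). Scaling by library totals alone moved the median of all genes to -0.33 in this comparison, called Cox18 and Sco2 lower as well (-0.95 and -0.96) and left Cox17 at 0.07 (adjusted p = 0.787).

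With dTAG13, the RNA of 4 of the 9 genes fell in late 2-cell embryos, 8 fell in the ICM, 7 fell and 1 rose in 2iES cells, and none passed the threshold in morulae. At the late 2-cell stage 7.24% of all genes tested were called lower and 1.32% higher, and 0 of the 9 were higher. In the ICM 38.5% of all genes were called lower and 38.4% higher, and 0 of the 9 were higher. In 2iES cells these shares were 28.1% and 26.5%. The median log2 fold change of the 9 was -0.44, -0.32, -0.61 and -1.14 in late 2-cell embryos, morulae, the ICM and 2iES cells, against 0.02, -0.02, 0.01 and 0.03 over all genes. With the cut-offs of the study, which also require a change of 2-fold or more and a group mean of 1 FPKM or more, 4, 4 and 5 of the 9 were lower in late 2-cell embryos, the ICM and 2iES cells, against 3.63%, 13.2% and 15.6% of all genes. In morulae 0 of the 9 were called in either direction by edgeR, where 0.205% of all genes were called lower and 0.161% higher. At an unadjusted p under 0.05 there was 1, Sco1, and DESeq2 and limma called 0. The dTAG13 libraries of morulae lay below both DMSO libraries for 5 genes (27.7% of all genes) and above them for 2 (17.3% of all genes).

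**Figure D2:**
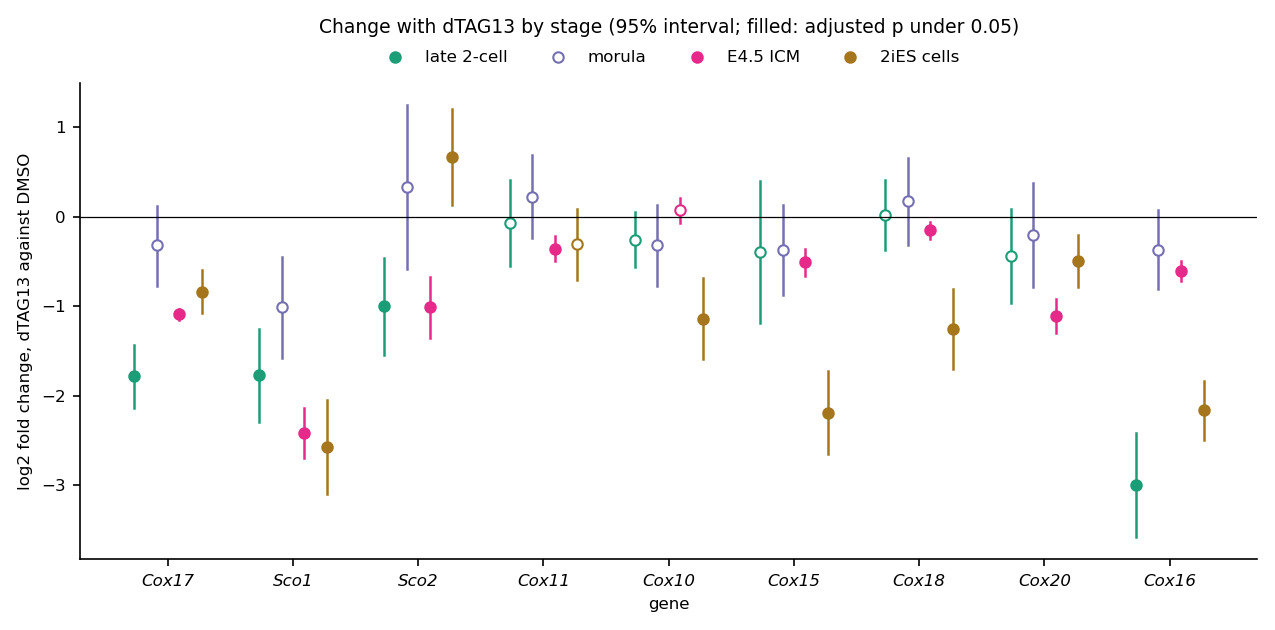
Log2 fold change of dTAG13 against DMSO (vertical axis) for the 9 genes, with 1 point for each stage and its 95% interval, filled where the adjusted p is under 0.05. All morula points are open, Cox16 in late 2-cell embryos is lowest at -3.00, and Sco2 in 2iES cells is the single filled point above 0.

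Among the copper factors, Cox17, which carries copper to the others, fell at 3 stages. In late 2-cell embryos it was at 411, 371 and 354 FPKM with DMSO and at 100, 126 and 101 with dTAG13. In the ICM it was at 1321 and 1278 against 648 and 639, and in 2iES cells at 1428 and 1356 against 760 and 784. The groups do not overlap at any of these stages, and the falls were 3.44-fold (log2 -1.78 ± 0.159, adjusted p = 5.03e-05), 2.12-fold (-1.09 ± 0.0302, adjusted p = 4.02e-28) and 1.78-fold (-0.84 ± 0.0984, adjusted p = 0.000676). Morulae had 2039 and 1591 FPKM in the controls against 1281 and 1526 in treated libraries, and both treated libraries lay below both controls by a difference within the replicate spread (log2 -0.32, 95% interval -0.77 to 0.12, adjusted p = 0.519). The change in late 2-cell embryos was larger than that in morulae, with a difference of -1.55 ± 0.209 between the log2 fold changes (adjusted p = 0.000116).

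Sco1, which delivers copper to COX2, was lower in every dTAG13 library than in every control of its stage. It was at 10.7, 7.79 and 8.99 FPKM with DMSO and 2.66, 2.16 and 3.67 with dTAG13 in late 2-cell embryos, a fall of 3.41-fold (log2 -1.77 ± 0.234, adjusted p = 0.000773). In the ICM the values were 8.46 and 9.08 against 1.93 and 1.93, a fall of 5.30-fold (-2.41 ± 0.138, adjusted p = 3.49e-18). In 2iES cells they were 6.44 and 5.42 against 0.95 and 1.41, a fall of 5.93-fold (-2.57 ± 0.219, adjusted p = 0.000196). These groups are apart, and the log2 fold changes in the ICM and 2iES cells are the largest in size among the copper factors. Morulae had 9.02 and 8.58 FPKM with DMSO and 4.00 and 4.42 with dTAG13, again apart, but the log2 fold change of -1.01 ± 0.265 did not pass the threshold over all genes (adjusted p = 0.13). The morula and ICM changes differed by 1.46 ± 0.362 (adjusted p = 0.0101).

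Sco2, the paralog of Sco1 with a role in the same copper site, fell in late 2-cell embryos and the ICM and rose in 2iES cells. In late 2-cell embryos it was at 19.5, 29.5 and 24.1 FPKM with DMSO and 15.2, 14.2 and 8.97 with dTAG13 (2.00-fold lower, log2 -1.0 ± 0.245, adjusted p = 0.0292), with no overlap. Leaving out any library but DMSO replicate 1 ended this call, with log2 fold changes of -1.12 to -0.80 and adjusted p-values of 0.0534 to 0.0977. In morulae both treated libraries lay above both controls, at 2.83 and 3.90 against 3.93 and 4.44, without passing the threshold (0.33, interval -0.58 to 1.25, adjusted p = 0.777). In the ICM it was at 8.63 and 9.10 against 5.46 and 3.93 (2.01-fold lower, -1.01 ± 0.168, adjusted p = 1.66e-06). In 2iES cells it was higher with dTAG13, at 5.33 and 3.81 against 7.29 and 7.46 (1.59-fold, 0.67 ± 0.226, adjusted p = 0.042), a call lost without DMSO replicate 2 (0.42, adjusted p = 0.075) or either dTAG13 library (0.65 and 0.64, adjusted p = 0.165 and 0.187) and with DESeq2 (adjusted p = 0.0888). The ICM and 2iES changes differed from each other by -1.72 ± 0.431 (adjusted p = 0.0105). Sco2 is the least certain of the 9, since 89.7% of its 31-base words occur in transcripts of other genes and its exons overlap Ncaph2 on the other strand (829 bases) and Tymp on the same strand (856 bases) in a library type without strand. Tymp is at 0.15 to 0.59 FPKM, whereas Ncaph2, a condensin subunit, is at 9.63 to 122 and had log2 fold changes by count of -0.40, -0.19, -0.31 and -0.60 at the 4 stages (adjusted p = 0.188, 0.74, 6.26e-12 and 0.0165). By FPKM, Ncaph2 overlapped between groups in the ICM (117 and 121 with DMSO, 118 and 122 with dTAG13) and in 2iES cells (44.8 and 35.0, 42.4 and 43.8).

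Cox11, which inserts copper into COX1, changed least among the copper factors. In late 2-cell embryos it was at 15.7, 14.7 and 9.83 FPKM with DMSO and 12.1, 14.5 and 13.4 with dTAG13, with overlapping groups (log2 -0.07, 95% interval -0.55 to 0.41). In morulae the values were 31 and 28.4 against 33.2 and 33.4 (0.22, interval -0.24 to 0.69). In the ICM, 44.1 and 37.8 against 33.1 and 35.4 gave a fall of 1.28-fold (-0.36 ± 0.0693, adjusted p = 1.68e-05), which did not pass the threshold with an error pooled over all stages (adjusted p = 0.195). In 2iES cells, 36.9 and 31.5 against 28.9 and 31.9 overlap (-0.31 ± 0.166, adjusted p = 0.152), and without DMSO replicate 2 the adjusted p was 0.00118 at -0.49. Of its 31-base words, 45.3% are shared with Tom1l1, which overlaps its exons by 688 bases on the other strand and had log2 fold changes of -0.40, -1.09, -0.41 and -2.33 (adjusted p = 0.543, 0.0856, 1.71e-05 and 0.000252).

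Of the pair that makes heme A, Cox15 fell in the ICM and in 2iES cells, and Cox10 in 2iES cells. Cox15, which converts heme O to heme A, was at 2.42 and 2.7 FPKM with DMSO and 0.58 and 0.58 with dTAG13 in 2iES cells, a fall of 4.55-fold (log2 -2.19 ± 0.195, adjusted p = 0.000232). In the ICM it was at 7.37 and 7.69 against 5.33 and 5.72, a fall of 1.42-fold (-0.51 ± 0.074, adjusted p = 1.26e-07, and 0.187 with the error pooled over all stages). The groups are apart at both stages, and the 2 changes differ by 1.63 ± 0.405 (adjusted p = 0.0099). In morulae the libraries were apart at 5.61 and 5.61 against 4.40 and 3.88 without passing the threshold (-0.37 ± 0.232, adjusted p = 0.509). At the late 2-cell stage Cox15 was at 1.31, 0.70 and 0.84 against 0.56, 1.07 and 0.65, where the groups overlap and the interval runs from -1.19 to 0.40.

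Cox10, which converts heme to heme O, gave different answers by count and by FPKM. DMSO libraries of 2iES cells had 31.5 and 21.6 FPKM against 14.9 and 15.2 with dTAG13, and expected counts of 784 and 590 against 286 and 238, a fall of 2.21-fold (log2 -1.14 ± 0.189, adjusted p = 0.00264). In the ICM the counts were 637 and 628 against 646 and 643, with a log2 fold change of 0.07 ± 0.0698 (adjusted p = 0.343), while the FPKM rose from 19.3 and 19.4 to 25.7 and 27.1. The mean length of the Cox10 transcripts that RSEM assigned there was 1761 and 1849 bases in controls against 1552 and 1422 in treated libraries, and the same number of reads over a shorter length gives a higher FPKM. Limma on log2(TPM + 1) called Cox10 higher in the ICM (0.41, adjusted p = 0.00314), as did upper-quartile scaling of the counts (0.18, adjusted p = 0.0238), which moved the median of all genes from 0.01 to 0.11.

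The opposite held for Cox10 in late 2-cell embryos. Control libraries had 45.4, 44.1 and 39.1 FPKM against 30.8, 32.9 and 31 in treated ones, whereas the counts of 1057, 1016 and 1019 against 925, 937 and 1042 overlap (-0.26 ± 0.137, adjusted p = 0.33) and the transcripts were longer with dTAG13, at 1239, 1290 and 1307 against 1429, 1381 and 1693 bases. Morulae had 48.4 and 43.2 FPKM against 32.5 and 33.9 (-0.32 ± 0.209, adjusted p = 0.531).

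**Figure D3:**
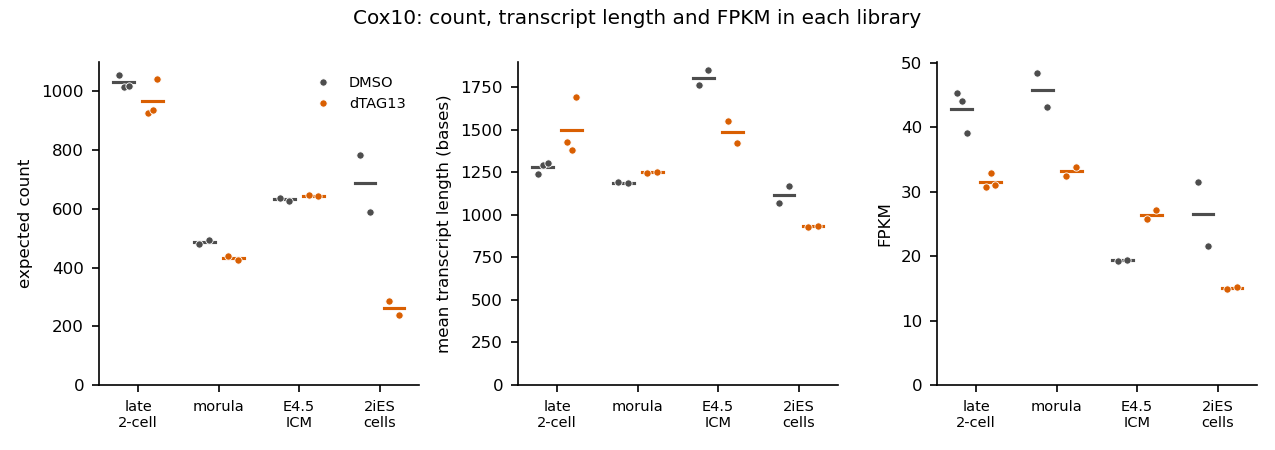
Expected count, mean transcript length in bases and FPKM of Cox10 (vertical axes, from 0) in each library, with bars at group means, DMSO in grey and dTAG13 in orange. In the ICM the counts lie between 628 and 646 while the transcripts are shorter with dTAG13, and the FPKM is higher.

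The factors for COX2 changed at different stages. Cox16, which joins COX2 to COX1, had the largest fall of the 9 genes in any stage. It was at 91.6, 66.3 and 83.0 FPKM with DMSO and 10.7, 7.28 and 14.7 with dTAG13 in late 2-cell embryos, a fall of 8.01-fold (log2 -3.00 ± 0.262, adjusted p = 4.37e-05). In 2iES cells it was at 154 and 160 against 36.4 and 33.8, a fall of 4.48-fold (-2.16 ± 0.14, adjusted p = 7.94e-05). Every treated library lay below every control at both stages. In the ICM it was at 164 and 161 against 111 and 112, a fall of 1.52-fold (-0.61 ± 0.0544, adjusted p = 1.52e-12), and in morulae at 393 and 351 against 236 and 300 (-0.37 ± 0.205, adjusted p = 0.451). The change in late 2-cell embryos exceeded that in morulae by -2.72 ± 0.289 (adjusted p = 9.53e-06) and that in the ICM by -2.42 ± 0.288 (adjusted p = 1.63e-05), and the ICM and 2iES changes differed by 1.51 ± 0.304 (adjusted p = 0.00238). Reads of Cox16 are shared with Gm20498, an annotated gene on the same strand that holds 55.2% of its 31-base words. That gene moved the same way, with log2 fold changes of -3.88, -1.5, -1.80 and -1.69 (adjusted p = 0.00139, 0.224, 4.36e-14 and 0.000396), at 0.14 to 48.2 FPKM.

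Cox18, the insertase that moves COX2 into the membrane, fell in 2iES cells, at 53.1 and 37.1 FPKM with DMSO and 18.9 and 18.2 with dTAG13 (2.38-fold, log2 -1.25 ± 0.186, adjusted p = 0.00171). The treated libraries lay well below both controls there. In the ICM it was at 79.1 and 78.1 against 77.7 and 75.6, a fall of 1.11-fold that passed the threshold (-0.15 ± 0.0461, adjusted p = 0.0032) but not with DESeq2 (adjusted p = 0.0516), limma on log2(TPM + 1) (0.22) or scaling by library totals (0.0812). The ICM and 2iES changes differed by 1.05 ± 0.291 (adjusted p = 0.0183). At the late 2-cell stage the values overlapped at 38.0, 27.8 and 33.0 against 28.9, 36.4 and 39.5 (0.02, interval -0.37 to 0.41), and in morulae at 60.7 and 84.2 against 81.7 and 81.7 (0.17, interval -0.32 to 0.65).

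Cox20, the chaperone of newly made COX2, fell in the ICM from 87.4 and 92.2 to 43.1 and 43.9 FPKM (2.16-fold, log2 -1.11 ± 0.0917, adjusted p = 1.61e-13). In 2iES cells it went from 303 and 318 to 199 and 229 (1.40-fold, -0.49 ± 0.122, adjusted p = 0.014), a call lost without dTAG13 replicate 1 (-0.40, adjusted p = 0.22) or dTAG13 replicate 2 (-0.63, adjusted p = 0.0713). It was also lost with upper-quartile scaling (adjusted p = 0.0774) and with the error pooled over all stages (adjusted p = 0.167). Treated and control libraries were apart at both stages. Late 2-cell groups overlapped at 33.1, 25.9 and 39.8 against 23.6, 21.7 and 30 (-0.44, interval -0.96 to 0.08), and in morulae at 137 and 155 against 85.6 and 156 (-0.20, interval -0.78 to 0.38). Cox20 shares 85.0% of its 31-base words with Hnrnpu, which overlaps its exons by 804 bases on the other strand and had log2 fold changes of -0.44, -0.21, 0.19 and 0.58 (adjusted p = 0.0207, 0.666, 1.14e-08 and 0.0496), that is, the other direction in the ICM and 2iES cells.

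The size of the change with dTAG13 was compared between stages in 1 fit of all 18 libraries. Late 2-cell embryos against morulae differed for 2 of the 9 genes, Cox16 and Cox17, both with a larger fall in late 2-cell embryos (lower, 5.79% of all 21915 genes), and for 0 in the other direction (0.68% of all genes, where 4 of the 9 had an unadjusted p under 0.05, all lower). Morulae against the ICM differed for 3, Sco1, Sco2 and Cox17 (higher, 10.6% of all genes), and for 0 the other way (5.44% of all genes). For Sco1 and Cox17 the log2 fold change was less negative in morulae (-1.01 and -0.32, not called), and for Sco2 it was 0.33 there (adjusted p = 0.777). Late 2-cell embryos against the ICM differed for Cox16 and Cox17, 2 lower (10.4% of all genes) and 0 higher (9.87% of all genes). The ICM against 2iES cells differed for 4 genes with a more negative log2 fold change in 2iES cells, Cox10, Cox15, Cox16 and Cox18 (higher, 7.42% of all genes), and for Sco2, which was lower in the ICM (9.93% of all genes). These contrasts share libraries and are not independent of each other.

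Of the 9 genes, 4 start within 500 bases of a gene on the other strand, and the values of both are given side by side. On GRCm38 (GENCODE M21), Sco1 lies on chromosome 11 from 67052670 to 67067070 on the plus strand, and Adprm, a phosphatase for ADP-ribose and CDP-alcohols, starts 76 bases away. Adprm was at 14.8, 12.9 and 15.1 FPKM with DMSO and 5.76, 5.90 and 7.35 with dTAG13 in late 2-cell embryos, and at 12.1 and 9.78 against 0.30 and 1.02 in the ICM. It fell at the same stages as Sco1, with log2 fold changes of -1.34, -3.99 and -2.26 in late 2-cell embryos, the ICM and 2iES cells (adjusted p = 0.00222, 6.48e-17 and 0.000121) and -1.10 in morulae (adjusted p = 0.223). The start between this pair holds 1 match to CTTCCGG, as printed above.

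Cox10 lies on chromosome 11 from 63962627 to 64079468 on the minus strand, 16 bases from the start of 2810001G20Rik, annotated as an antisense RNA. This RNA was at 27.5, 30.4 and 30.3 FPKM with DMSO and 14.4, 12.6 and 13.5 with dTAG13 in late 2-cell embryos, where the Cox10 count overlaps between groups. It fell in late 2-cell embryos and in 2iES cells (-1.19 and -1.13, adjusted p = 0.00138 and 0.00294) and had 0.16 in the ICM (adjusted p = 0.354) and -0.45 in morulae (adjusted p = 0.503). Cox15 lies on chromosome 19 from 43733254 to 43753000 on the minus strand, 4 bases from the start of Cutc, whose product is named for copper transport. Cutc fell with Cox15 in the ICM and 2iES cells (-0.54 and -1.34, adjusted p = 1.04e-05 and 0.0016). Cox11, on chromosome 11 from 90638173 to 90644931 on the plus strand, starts 89 bases from Stxbp4, which rose in 2iES cells from 2.51 and 2.10 to 7.89 and 7.62 FPKM (1.65, adjusted p = 0.000575) where Cox11 overlapped between groups.

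**Figure D4:**
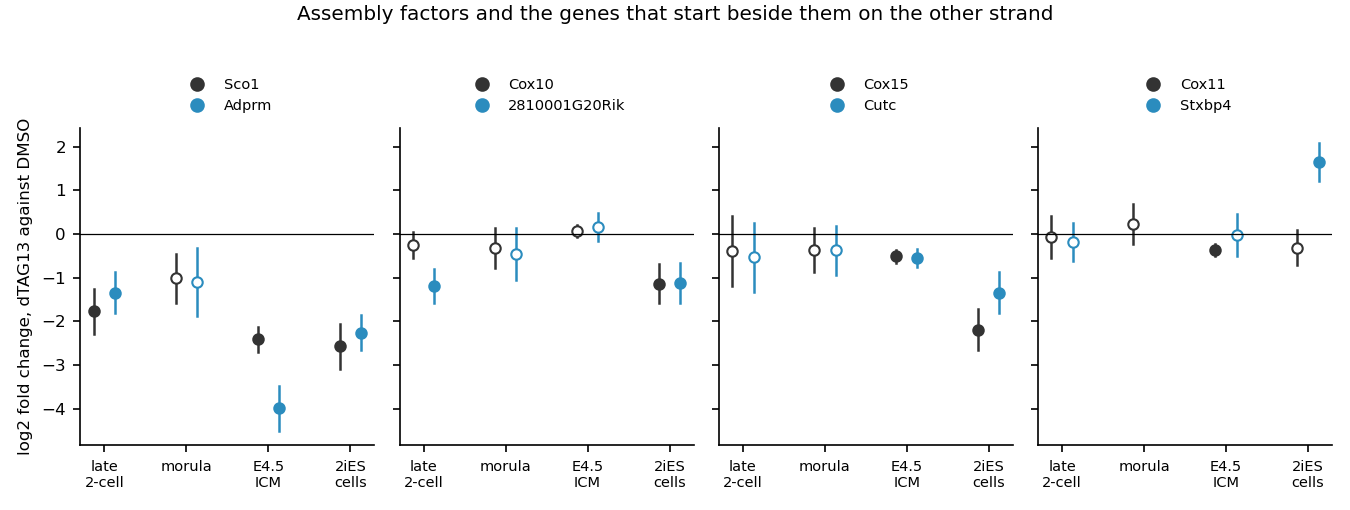
Log2 fold change of dTAG13 against DMSO (vertical axis) with 95% intervals at each stage for 4 assembly factors in black and the gene that starts beside each on the other strand in blue, filled where the adjusted p is under 0.05. Sco1 and Adprm are below 0 at all 4 stages, Cox10 and its antisense neighbour are both near 0 in the ICM and near -1.1 in 2iES cells, and Stxbp4 is missing in morulae, where it did not pass the count filter.

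The remaining genes have no such neighbour within 500 bases. They are Cox16 (chromosome 12, 81359026 to 81485127, minus strand), Cox17 (chromosome 16, 38346991 to 38352763, plus strand), Cox18 (chromosome 5, 90214724 to 90224001, minus strand), Cox20 (chromosome 1, 178319130 to 178322693, plus strand) and Sco2 (chromosome 15, 89371637 to 89373846, minus strand).

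Other genes of the enzyme were taken from lists. Of 25 further assembly factors found in the tables, 24 were tested at each stage. Of these, 8 fell and 0 rose in late 2-cell embryos, 0 changed in morulae, 10 fell and 6 rose in the ICM, and 8 fell and 2 rose in 2iES cells, with median log2 fold changes of -0.24, 0.06, -0.07 and -0.30. Among all genes, 7.24% were called lower in late 2-cell embryos, 38.5% lower and 38.4% higher in the ICM, and 28.1% lower and 26.5% higher in 2iES cells, so that the counts of lower genes in the ICM and 2iES cells are near the background. Surf1, which acts with heme A in COX1 maturation, fell furthest in late 2-cell embryos, from 59.2 to 4.82 FPKM on average (-3.62, adjusted p = 6.98e-06), in the ICM (-1.77, adjusted p = 5.75e-23) and in 2iES cells (-2.95, adjusted p = 4.17e-05). Slirp, which stabilizes mitochondrial mRNA, fell at the same 3 stages (-1.44, -1.51 and -1.66, adjusted p = 0.000135, 2.22e-29 and 0.000124). Coa5 fell in late 2-cell embryos (-2.18, adjusted p = 0.000992), and Coa4 fell in the ICM and 2iES cells (-1.5 and -2.30, adjusted p = 2.08e-15 and 0.000124). In the other direction, Tmem177, a partner of Cox20 in COX2 maturation, rose in the ICM and 2iES cells (1.12 and 0.75, adjusted p = 5.61e-08 and 0.00791), as did Cmc2 (0.41) and Cox14 (0.27) in the ICM and Higd1a (0.28, adjusted p = 0.0425) in 2iES cells.

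The 13 nuclear subunits of the enzyme went in both directions. Of them, 5 fell in late 2-cell embryos, 7 fell and 5 rose in the ICM, and 4 fell and 7 rose in 2iES cells, with 0 called in morulae. Beside the shares of all genes just given, the number that rose in the ICM and the number that fell in 2iES cells are near the background. Their medians were -0.25, -0.05, -0.11 and 0.32 in late 2-cell embryos, morulae, the ICM and 2iES cells, so that in 2iES cells the 9 assembly factors and the subunits had medians of opposite sign. The smallest adjusted p-values among those that fell were those of Cox7a2 in late 2-cell embryos (-1.49, adjusted p = 6.64e-06) and in 2iES cells (-0.65, adjusted p = 0.00149) and of Cox6b1 in the ICM (-1.77, adjusted p = 2.23e-35). Ndufa4 rose in 2iES cells (1.11, adjusted p = 0.000186), and Cox7a2l in the ICM (0.45, adjusted p = 7.25e-14).

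None of the 3 core subunits encoded in mitochondrial DNA was called lower at any stage. In the ICM mt-Co1 and mt-Co2 rose by 0.36 each (adjusted p = 4.09e-19 and 1.43e-19) and mt-Co3 differed by 0.03 (adjusted p = 0.491). In 2iES cells mt-Co1 rose (2.11, adjusted p = 0.0402), and mt-Co2 and mt-Co3 differed by 1.86 and 2.18 (adjusted p = 0.0594 and 0.0525). Those values rest on controls that differ among themselves, as mitochondrial genes took 0.371% and 2.17% of counts in the DMSO libraries of 2iES cells and 5.16% and 4.51% with dTAG13. They were not called in late 2-cell embryos or morulae, with log2 fold changes of 0.11 to 0.61 and -0.40 to 0.16.

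**Figure D5:**
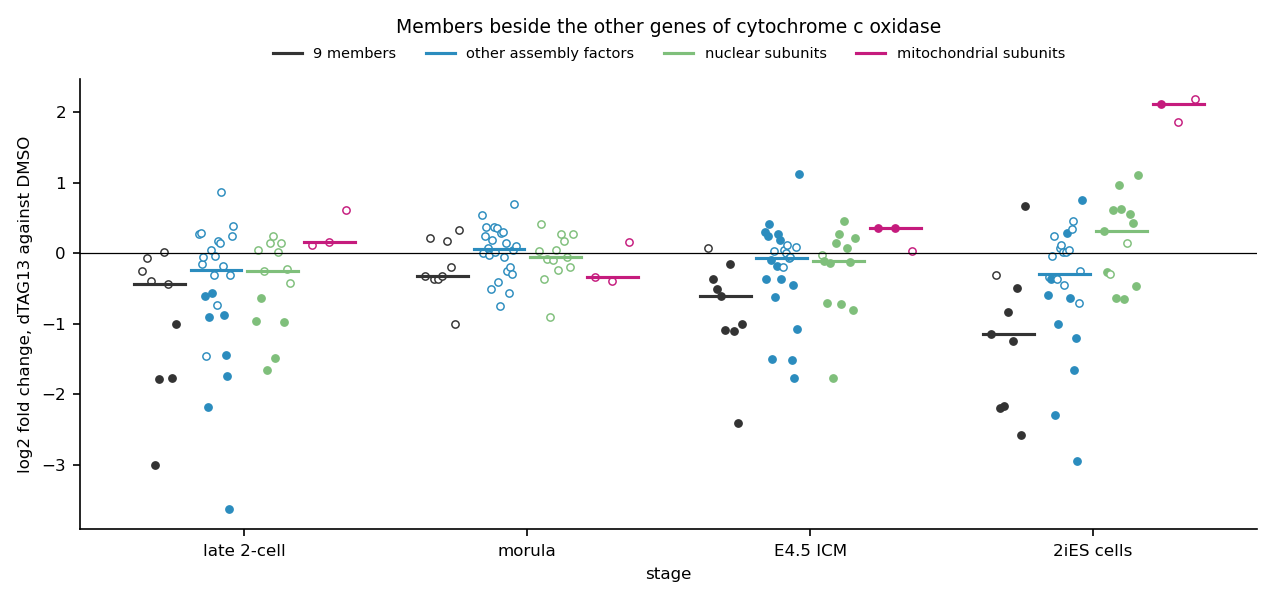
Log2 fold change of dTAG13 against DMSO (vertical axis) by stage for the 9 members, the other assembly factors, the nuclear subunits and the mitochondrial subunits, with 1 point for each gene, filled where the adjusted p is under 0.05, and a bar at the median. The median of the 9 lies below 0 at every stage, and that of the mitochondrial subunits is 2.11 in 2iES cells.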

How the data were processed

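Gene tables of 18 RNA-seq libraries (poly(A) RNA, not strand-specific) were used. Per the labels and the study's methods, the authors trimmed reads with Trimmomatic 0.39, aligned them with STAR to GRCm38 and ran RSEM, and the deposited files give expected counts, TPM and FPKM. A total of 55144 of 55385 identifiers were named from GENCODE M21. Expected counts, rounded, were compared with edgeR 4.0.16 in R 4.3.3 (TMM scaling, quasi-likelihood test, at least 10 counts in as many libraries as the smaller group, Benjamini-Hochberg adjustment over all genes, threshold 0.05), within each stage, among the 9 DMSO libraries, and for differences between stages in all 18 libraries. The fits were tested on simulated data. Levels are the deposited FPKM and TPM values, and TPM was tested as log2(TPM + 1) and log2(TPM + 0.1) with limma 3.58.1. DESeq2 1.42.0, other scalings, no count filter, a replicate block and leaving out each library were alternatives. Named are the 9 genes, Gabpa, neighbours by position, and by smallest adjusted p in each direction at each stage 3 other assembly factors and 1 nuclear subunit. The members and lists were chosen with earlier results of these data known. Shared sequence was measured by 31-base words that a gene's transcripts have in common with another gene. Chromatin libraries of the series were not used here.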

Additional observations from a re-analysis of the deposited data

Results flagged for a closer look

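For 7 of the 9 assembly factors the change with dTAG13 differed between stages in at least 1 of 4 contrasts. The test was edgeR's quasi-likelihood test of the difference between log2 fold changes, with adjustment over all genes. Of all genes, late 2-cell embryos minus morulae called 5.79% lower and 0.68% higher, and late 2-cell embryos minus ICM 10.4% and 9.87%. Morulae minus ICM called 5.44% and 10.6%, and ICM minus 2iES cells 9.93% and 7.42%. The share of all genes called in at least 1 of the 4 was not counted. Late 2-cell embryos minus morulae gave -2.72 for Cox16 and -1.55 for Cox17, from falls of 8.01-fold and 3.44-fold in late 2-cell embryos, where 3 of 3 treated libraries lay below the controls. Both differences passed the threshold without any 1 of the 18 libraries. Late 2-cell embryos minus ICM gave -2.42 for Cox16 and -0.72 for Cox17, and the latter was lost without any 1 of 8 libraries. Morulae minus ICM gave 1.46 for Sco1, 1.40 for Sco2 and 0.83 for Cox17. Of these, Sco1 was lost without ICM DMSO replicate 2 or ICM dTAG13 replicate 2, Sco2 without any 1 of 14 libraries and in 4 of 5 other settings, and Cox17 without any 1 of 6 and in 2 of 5 other settings, DESeq2 size factors (adjusted p = 0.0513) and library totals (adjusted p = 0.0713). ICM minus 2iES cells gave -1.72 for Sco2, 1.17 for Cox10, 1.63 for Cox15, 1.51 for Cox16 and 1.05 for Cox18. Sco2 was lost without ICM dTAG13 replicate 2 and Cox18 without any 1 of 3 libraries, and the other 3 were kept. The dose was the same at the 3 embryo stages and differed in 2iES cells. The part of the dose in the ICM minus 2iES differences, and of the treatment window in all of them, was not tested.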

How the results depend on the processing

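Over 495 repeats of the within-stage values of the 9 genes, 464 kept their side of the threshold, 26 lost it, 5 gained it and 0 called values changed direction. For the controls 394 of 405 and for differences between stages 784 of 828 kept it. In the ICM, 5 of the 9 were lower when all libraries shared 1 error estimate and 4 with the study's cut-offs, and 1 (Cox10) was higher with upper-quartile scaling and on log2(TPM + 1) and log2(TPM + 0.1). In 2iES cells 0 were higher without a count filter, with DESeq2, on log2(TPM + 1) and log2(TPM + 0.1), with 1 error estimate and with the study's cut-offs, and 0 to 1 when single libraries were left out. By library totals alone, 2iES against ICM controls gave 3 lower and 1 higher, and the morula minus ICM difference 1 higher, as did DESeq2 size factors. Leaving out 1 library gave 0 to 1 lower and 1 to 3 higher for 2iES against ICM controls and 0 to 1 higher for ICM against morula controls. It gave 0 to 3 higher for morula minus ICM, 1 to 2 lower for late 2-cell minus ICM and 0 to 1 lower for ICM minus 2iES cells. Libraries with the same replicate number shared only the number (correlations of their deviations -0.12 to 0.05). With a replicate block 1 of the 9, Sco1, was lower in morulae (log2 -1.02, adjusted p = 0.0277), and calls over all genes went from 1492 to 1580 in late 2-cell embryos, 50 to 392 in morulae, 12174 to 11966 in the ICM and 8469 to 8159 in 2iES cells. With the 2iES numbers crossed, chosen after seeing the data, there were 8917 calls. The share of calls that are lower in late 2-cell embryos was 84.6%, 74.4% by library totals and 66.5% by upper quartile, which moved the median of all genes to 0.14 there and to 0.21 in 2iES cells. That share was 89.5%, 78.7% by DESeq2 size factors and 71.4% by library totals for late 2-cell minus morula, and 48.7% and 70.2% by library totals for 2iES against ICM controls. Depth was lowest in morulae, and groups of 2 limit every stage but late 2-cell. The cause of these shifts was not tested.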

Other observations

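For each of the 9 genes the gene with the most similar log2 level over the 18 libraries was looked up among 14726 genes, as a description with no test, since the libraries share stages and treatments. Pearson's r was 0.987 for Cox15 and Lman2, 0.976 for Cox17 and Arpp19, 0.973 for Cox16 and Ykt6, 0.972 for Sco1 and Cldn12 as well as for Cox11 and Smim27, 0.961 for Sco2 and Lin7b, 0.959 for Cox20 and Pop7, 0.947 for Cox18 and Cdipt and 0.933 for Cox10 and Gm10120. None of these partners is another assembly factor or subunit of the enzyme.

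The letters CCGGAAG on either strand stood in 9 of 20 promoter windows of the other assembly factors (45%) and in 3 of 11 windows of the nuclear subunits (27.3%), against 75% of the 8 windows of the 7 members with an entry. The summed FPKM of 7 p53 target genes was 537 to 570 with DMSO and 1041 to 1049 with dTAG13 in the ICM, and 894 to 1132 and 2274 to 2299 in 2iES cells. At the late 2-cell stage 8 oocyte transcripts summed to 1453 to 1490 FPKM with DMSO and 1827 to 2164 with dTAG13, but only 1 of the 8 was called higher and 0 lower. The part of either in the changes of the assembly factors was not tested.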
